A study of Saccharomyces cerevisiae with 43 samples.

Results

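The genes described here are 10 genes of purine metabolism in budding yeast, taken by their symbols: ADE1, ADE2, ADE4, ADE6, ADE8, ADE12, ADE13 and ADE17 of purine synthesis, HPT1 of purine salvage, and GUD1 of guanine breakdown. All 10 were measured on both array designs of the study, among 5604 rows on the first and 6868 on the second. Each value is the log2 ratio between stressed or recovered cells and a reference on the same 2-colour array, so −1 is a 2-fold lower transcript level than in the reference. The study asked how earlier salt exposure changes the later response to H2O2. On the first design, all cells were BY4741, a haploid laboratory strain that cannot make histidine, leucine, methionine or uracil, grown in the rich medium YPD for 3 doublings. Naive cells received 0.4 mM H2O2 for 10 or 20 min (3 arrays each) or for 30 or 40 min (2 arrays each). Salt-treated cells received 0.7 M NaCl for 15 or 60 min (1 array each) or for 30 or 45 min (2 arrays each). Pretreated cells spent 60 min in 0.7 M NaCl and 240 min in medium without stress before 0.4 mM H2O2, with the same times and array numbers as the naive cells. Recovered cells were taken 240 min after the salt or after a mock treatment (3 arrays each). Naive, NaCl and recovered arrays used untreated 0 min cells as reference, and pretreated arrays used the cells recovered from NaCl. The second design held 11 conditions on 1 array each, in BY4741 and in a nup42-delta strain, which lacks a protein of the nuclear pore, after at least 7 doublings. Both strains received 0.4 mM H2O2 for 10 or 20 min, naive or after the same NaCl pretreatment and recovery, and 0.7 M NaCl for 30 min. A further array held untreated nup42-delta cells.

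Yeast builds the purine ring stepwise on phosphoribosyl pyrophosphate (PRPP), a sugar phosphate that is also used for pyrimidines and histidine. The ADE enzymes carry the pathway to inosine monophosphate (IMP), from which separate branches lead to AMP and GMP. When bases are present in the medium, cells can instead attach them to PRPP directly by salvage enzymes such as HPT1, which spares the long route. Transcription of most ADE genes is known to depend on the activators BAS1 and PHO2 and to fall when adenine is plentiful.

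The nup42-delta label held where it could be checked: NUP42 read −5.36 in untreated nup42-delta cells against BY4741 and −4.75 in nup42-delta cells after 30 min of NaCl against recovered BY4741 cells. Ratios carry no signal level, so markers of the haploid strain could not be checked. Array medians on the first design lay between −0.16 and 0.08, and the spread of values (standard deviation, SD, over genes) rose from 0.226 in recovered cells to 1.46 after 40 min of H2O2 in pretreated cells. The number of arrays limits the precision. Nothing in the labels says that replicate arrays came from separate cultures, so the p-values measure only the spread between these arrays. In RNA from a whole culture, a change in the share of cells that express a gene and a change in every cell cannot be told apart. Tests were made with limma across all genes, and a gene passed at a Benjamini-Hochberg adjusted p under 0.05.

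HPT1, the hypoxanthine-guanine phosphoribosyltransferase that returns these bases to IMP and GMP, fell in all 10 tested groups of stressed cells. Its position among the lowest genes in both stresses was already known when the genes were chosen, so its size and ranks are given as a description. For the same reason, HPT1 adds no independent support to the counts of members given below. In naive cells under H2O2, HPT1 read −0.75, −0.83 and −0.91 on the 3 arrays at 10 min, and −1.92, −1.91 and −2.00 at 20 min. The 2 arrays at 30 min read −3.01 and −3.22, and those at 40 min −3.94 and −4.12. Each time point lay wholly below the one before it, and the SD at 20 min was far smaller than these steps. The mean at 40 min was −4.03 ± 0.26 (standard error, SE, n = 2), a 16.3-fold lower level, and HPT1 was rank 9 from the lowest of 5273 genes. Each SE comes from limma's variance of the gene over all 32 arrays, not from the n arrays of the group alone. At 10 min, HPT1 was the 1 member of the 10 that passed, and 18.6% of all genes tested fell there. Without the replicate 1 arrays, HPT1 at 10 min was −0.87 and did not pass (adjusted p = 0.084).

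In pretreated cells, HPT1 read −1.5, −0.88 and −1.85 at 10 min and −3.42, −2.16 and −3.74 at 20 min. The replicate 2 array was the highest at both times, and these values were more spread than those of naive cells. At 30 min, HPT1 read −4.53 and −3.52, and at 40 min −4.99 and −4.98. The mean at 40 min was a 31.7-fold lower level than in recovered cells (n = 2), at rank 5 from the lowest. Under NaCl it was low from the first time measured: on the 1 array at 15 min HPT1 read −3.19 and was rank 1, the lowest of 5538 genes with a value. At 30 min of NaCl it read −4.14 and −4.0, at 45 min −2.57 and −2.21, and on the 1 array at 60 min −1.83. The mean at 30 min, −4.07 ± 0.26 (n = 2), was a 16.8-fold lower level at rank 5 from the lowest of 4986 genes. From 30 to 45 min HPT1 rose by 1.68 ± 0.36 (adjusted p = 0.00491), while still 5.24-fold below the untreated cells. That rise did not pass without NaCl 30 min replicate 1 (1.61, adjusted p = 0.0737) or NaCl 45 min replicate 2 (1.5, adjusted p = 0.0541).

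**Figure D1:**
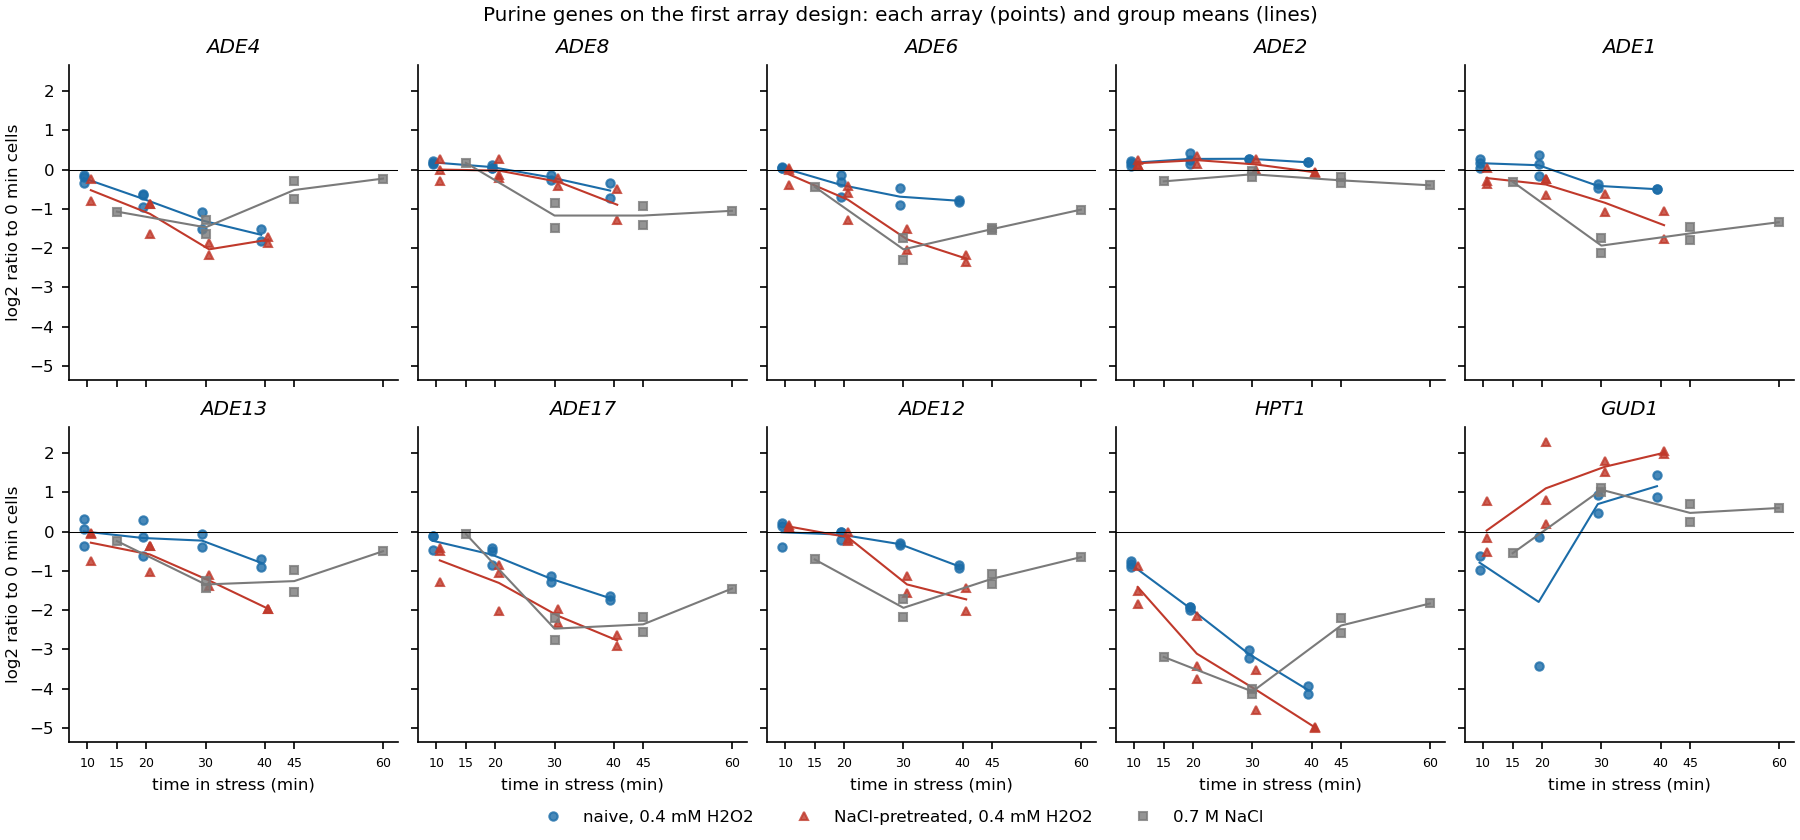
Log2 ratio to 0 min cells (y axis; recovered cells are the reference for pretreated cells) against minutes in stress (x axis) for the 10 genes on the first design. Each point is 1 array and lines join group means. HPT1 falls in all 3 treatments, ADE2 stays between −0.40 and 0.41, and GUD1 is the 1 gene with means above 1.

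ADE4 is the amidophosphoribosyltransferase that takes PRPP into purine synthesis. Under H2O2 in naive cells, ADE4 read −0.66, −0.63 and −0.94 at 20 min, −1.07 and −1.52 at 30 min, and −1.5 and −1.82 at 40 min. All of these arrays were below the 3 at 10 min, which read −0.19, −0.14 and −0.33. The mean at 40 min was 3.16-fold lower (adjusted p = 3.48e-07, n = 2). In pretreated cells, ADE4 read −0.88, −0.87 and −1.63 at 20 min, −2.18 and −1.88 at 30 min, and −1.86 and −1.71 at 40 min. The replicate 3 array at 20 min was lower than the other two, and the mean was no lower at 40 than at 30 min. Under NaCl, ADE4 was low early and for a short time: −1.07 on the 1 array at 15 min, −1.29 and −1.65 at 30 min, −0.30 and −0.74 at 45 min, and −0.23 on the 1 array at 60 min. Its rise from 30 to 45 min was 0.95 ± 0.28 (adjusted p = 0.0333), and that call was lost when any 1 of NaCl 30 min replicates 1 and 2 and NaCl 45 min replicate 1 was left out. Its fall at 45 min, −0.52 ± 0.20 (adjusted p = 0.0411), was lost when either array was left out (−0.74 and −0.30).

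ADE17 is the enzyme of the last 2 steps to IMP. In naive cells, ADE17 read −0.49, −0.43 and −0.84 at 20 min, −1.12 and −1.28 at 30 min, and −1.65 and −1.74 at 40 min. The 40 min mean was 3.24-fold lower (adjusted p = 1.12e-06, n = 2). In pretreated cells it read −1.05, −0.86 and −2.01 at 20 min, −2.32 and −1.97 at 30 min, and −2.90 and −2.64 at 40 min. From 20 min on, each pretreated array lay below each naive array of the same time, and the 40 min mean was 6.82-fold lower than in recovered cells (adjusted p = 4.57e-10, n = 2). Under NaCl, ADE17 was still at −0.06 on the array at 15 min, when ADE4 and HPT1 were already past 2-fold lower. It then read −2.75 and −2.19 at 30 min, −2.17 and −2.55 at 45 min, and −1.45 at 60 min. At 30 min of NaCl ADE17 was the lowest of the 8 ADE genes, 5.54-fold below untreated cells (adjusted p = 6.04e-09, n = 2).

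Between these steps stand ADE8, the glycinamide ribotide transformylase, ADE6, the formylglycinamidine synthetase, ADE2, the carboxylase, and ADE1, which adds aspartate. ADE13, the adenylosuccinate lyase, acts both before IMP and on the branch to AMP, and ADE12, the adenylosuccinate synthetase, opens that branch. In naive cells, ADE6 read −0.71, −0.15 and −0.31 at 20 min, −0.90 and −0.48 at 30 min, and −0.82 and −0.77 at 40 min. In pretreated cells ADE6 read −0.60, −0.41 and −1.29 at 20 min, −2.05 and −1.5 at 30 min, and −2.35 and −2.18 at 40 min, with the replicate 3 array again lowest at 20 min. ADE12 stayed near 0 until late. It lay between −0.40 and 0.21 on all naive and pretreated arrays at 10 and 20 min, then read −0.92 and −0.85 in naive cells and −2.01 and −1.44 in pretreated cells at 40 min. ADE13 read −0.69 and −0.90 in naive and −1.97 and −1.96 in pretreated cells at 40 min. ADE1 read −0.50 on both naive arrays and −1.77 and −1.06 on the pretreated arrays at 40 min. ADE8 read −0.34 and −0.73 in naive cells and −1.29 and −0.50 in pretreated cells at 40 min, so its groups overlapped.

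ADE2 was the exception. Its encoded carboxylase lies in the middle of the pathway, and loss of the gene turns colonies red. ADE2 read 0.15, 0.25 and 0.41 on the naive arrays at 20 min and passed as higher (0.27 ± 0.10, adjusted p = 0.0233). Among the 8 ADE members, no other call as higher was made in the 10 tested groups of stressed cells. That call was lost without naive 20 min replicate 2 (adjusted p = 0.0679) or replicate 3 (adjusted p = 0.164). It read 0.19 and 0.18 in naive cells at 40 min, −0.08 and −0.06 in pretreated cells at 40 min, and −0.04 and −0.20 after 30 min of NaCl. In the 10 tested groups of stressed cells the mean of ADE2 stayed between −0.28 and 0.27. ADE4 and ADE17 each passed as lower in 9 of these 10 groups, ADE6 in 8, ADE1 in 7, ADE13 in 6, ADE12 in 5 and ADE8 in 4. How many of all genes passed in as many of these related groups was not counted.

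In naive cells under H2O2, 3 of the 8 ADE genes passed as lower at 20 min (ADE4, ADE6 and ADE17), against 29.3% of all genes tested, and 25.4% were higher. At 30 min, 4 passed as lower with ADE1 added (29.4% of all genes), and at 40 min 7 passed, all but ADE2 (33.4% of all genes). The median of the 8 means was −0.12 at 20 min, −0.37 at 30 min and −0.80 at 40 min, where the median of all genes tested was −0.067, −0.06 and −0.08. With HPT1 and GUD1, the counts of members that passed were 6 at 20 min (ADE2 as higher), 5 at 30 min and 8 at 40 min. In either direction, 54.7%, 55.2% and 61.4% of all genes passed at these times, so the counts at 20 and 30 min were near that share. The count at 20 min was 3 without naive 20 min replicate 3, that at 30 min was 3 without naive 30 min replicate 1, and that at 40 min was 5 without naive 40 min replicate 2. The share of all genes in these leave-one-out fits is not given. With all arrays scaled to the same spread, 3 of the 10 members passed at 30 min and 3 at 40 min, near the 29.5% and 30% of all genes. HPT1, ADE4, ADE17, ADE12 and ADE6 passed at 40 min when either naive 40 min array was left out.

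In pretreated cells, 2 ADE genes (ADE4 and ADE17) and HPT1 passed as lower against the recovered reference at 10 min, where 23.9% of all genes tested fell. At 20 min the count of ADE genes was 5, against 34% of all genes, at 30 min 6, against 32.7%, and at 40 min 7, against 33.5%. The medians of the 8 means were −0.48 at 20 min, −1.29 at 30 min and −1.75 at 40 min, and those of all genes −0.10, −0.04 and −0.04. Without pretreated 10 min replicate 3, 1 member passed at 10 min in place of 3. Without pretreated 20 min replicate 3, 4 members passed at 20 min in place of 7, and ADE1, ADE13 and GUD1 were those lost. With all arrays, 40.5% of all genes passed in either direction at 10 min and 60.7% at 20 min. These replicate 3 arrays carry another array code series than the others (YG8 in place of YG9) and had the largest spread over genes of their groups, at SDs of 0.991 and 1.38. Among the YG9 arrays alone, 4 members passed at 20 min, where 54.4% of all genes did. The part of the array code series in these counts was not tested otherwise.

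GUD1, the guanine deaminase that turns guanine into xanthine, moved the other way under late H2O2. In pretreated cells, GUD1 read −0.52, −0.17 and 0.77 at 10 min, 0.20, 0.81 and 2.29 at 20 min, 1.79 and 1.51 at 30 min, and 1.97 and 2.04 at 40 min. It passed as higher at 20 min (where 26.8% of all genes rose), at 30 min (29.7%) and at 40 min (29.8%), and the 40 min mean was 4.01-fold higher (adjusted p = 0.00207, n = 2). At 20 min the call rested on replicate 3: without it GUD1 was at 0.505 (adjusted p = 0.392). At 30 min the call was lost when either array was left out, at 1.51 (adjusted p = 0.101) and 1.79 (adjusted p = 0.0585). In naive cells, GUD1 read −0.97 and −0.61 at 10 min, −3.43 and −0.15 at 20 min, 0.47 and 0.93 at 30 min, and 0.88 and 1.43 at 40 min, with no value on the replicate 3 arrays at 10 and 20 min. The −3.43 lay far from every other GUD1 value, and on the second design naive BY4741 cells read 0.28 at 20 min. The mean at 20 min, −1.79 ± 0.51, passed as lower by limma (adjusted p = 0.00613, n = 2), with the variance shared by all arrays. The 2 arrays themselves had an SD of 2.32, and without the array at −3.43 GUD1 was at −0.15. At 40 min the naive mean of 1.16 ± 0.51 did not pass (adjusted p = 0.0572). Under NaCl, GUD1 read −0.55 at 15 min, 1.12 and 1.01 at 30 min, 0.24 and 0.71 at 45 min, and 0.60 at 60 min, and neither tested time passed (adjusted p = 0.0869 at 30 min and 0.494 at 45 min).

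The pretreated response was set against the naive response at each time, each relative to its own 0 min cells. At 10 min none of the 10 members passed by limma, and 0.286% of all genes did, with 511 genes at an unadjusted p under 0.05. At 20 min, HPT1 fell further in pretreated cells, by 1.16 ± 0.30 (adjusted p = 0.0312, n = 3 and 3), and GUD1 was higher, by 2.89 ± 0.66 (adjusted p = 0.0217, n = 3 and 2). Of all genes, 0.736% passed as lower and 3.13% as higher at 20 min. The GUD1 difference rests on the naive array at −3.43: without it the difference was 1.25 (adjusted p = 0.277), and without pretreated 20 min replicate 3 it was 2.29 (adjusted p = 0.152). The HPT1 difference lay between −1.64 (without pretreated replicate 2) and −0.847 (without pretreated replicate 3) when 1 array was left out, and it was −0.61 with arrays scaled to the same spread. It did not pass without any 1 of naive replicates 1 and 2 (adjusted p = 0.102 and 0.101) and pretreated replicates 1 and 3 (0.0837 and 0.217). Among the YG9 arrays alone it was −0.875 (adjusted p = 0.151), and on the 1 pair of YG8 arrays −1.74.

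At 30 min, ADE6 (−1.08 ± 0.27, adjusted p = 0.0166), ADE13 (−1.01 ± 0.31, adjusted p = 0.0438) and ADE12 (−1.02 ± 0.23, adjusted p = 0.0102) were lower in pretreated cells, 2 arrays against 2. These are 3 of 10 members, against 6.26% of all genes tested. At 40 min, 5 of the 10 members were lower, against 9.5% of all genes: ADE6 by 2.77-fold (adjusted p = 0.00143), ADE13 by 2.25-fold (adjusted p = 0.0159), ADE17 by 2.11-fold (adjusted p = 0.027), ADE1 by 1.89-fold (adjusted p = 0.0166) and ADE12 by 1.79-fold (adjusted p = 0.0166). ADE4, the entry step, differed by −0.13 ± 0.28 at 40 min and did not pass (adjusted p = 0.828). Its arrays overlapped there. HPT1 differed by −0.91 ± 0.36 at 30 min and −0.96 ± 0.36 at 40 min without passing (adjusted p = 0.118 and 0.0876), nor did ADE8 and ADE2 at either time.

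All pretreated arrays lay below all naive arrays of the same time for 2 members at 10 min, against 9.6% of all genes, for 3 at 20 min (9.8%), for 7 at 30 min (31.1%) and for 7 at 40 min (31.2%). GUD1 was the 1 member wholly above at each of the 4 times, against 9.79%, 12.3%, 26.6% and 24.8% of all genes. The calls at 20, 30 and 40 min were lost under 2 alternatives, and not for these members alone: with arrays scaled to the same spread, 0 of the 10 members and 0% of all genes passed at each of these times, and the same held with the variance taken from the 4 to 6 arrays of the comparison in place of all 32. At 30 min, 0 members passed without either naive array and 1 without pretreated replicate 1. At 40 min, 1 passed without naive replicate 1, naive replicate 2 or pretreated replicate 1, and 3 without pretreated replicate 2. The ADE6 difference at 40 min passed without any 1 of these 4 arrays. The share of all genes that passed with an array left out is not given, so whether these lower counts are particular to the members is not shown. The SDs over all genes were 1.26 and 1.35 on the naive and 1.44 and 1.46 on the pretreated arrays at 40 min.

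**Figure D2:**
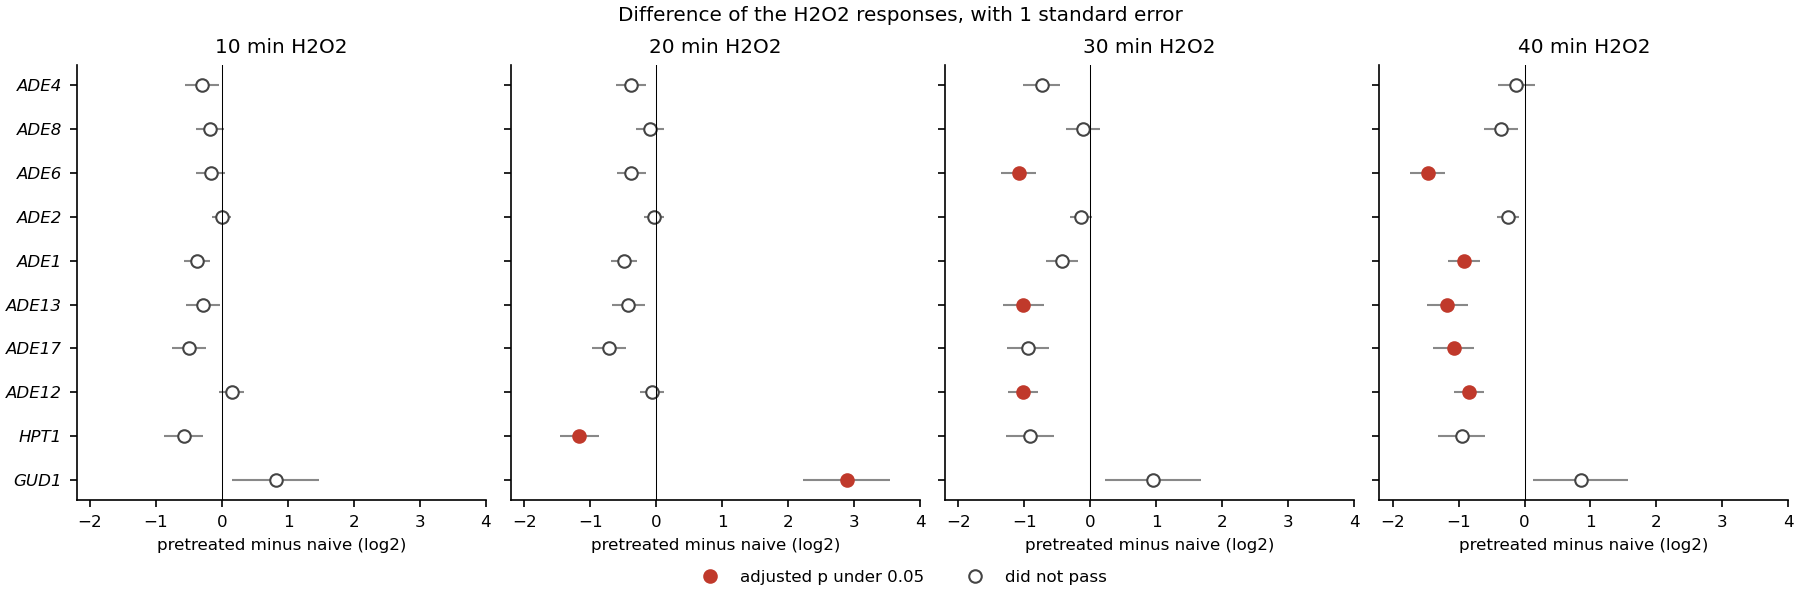
Pretreated minus naive log2 response (x axis) for the 10 genes at 10, 20, 30 and 40 min of H2O2, each against its own 0 min cells. Points are differences of group means, bars are 1 SE from limma, and filled points passed at an adjusted p under 0.05. No member passed at 10 min, HPT1 and GUD1 passed at 20 min, 3 ADE genes at 30 min and 5 at 40 min.

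Before H2O2 was added, no member passed against the untreated level on the values as deposited. After recovery from NaCl, HPT1 read 0.25, 0.11 and 0.10, and after the mock treatment 0.14, 0.05 and 0.27, so the groups overlapped. ADE17 read 0.07, 0.34 and −0.09 after NaCl and −0.03, −0.23 and −0.04 after the mock treatment. The other ADE genes lay between −0.46 and 0.38 on all 6 arrays, and GUD1 between −0.84 and 0.19. None of the 10 passed against 0 or between the treatments, and 0% of all genes passed in the limma fit, with 473 genes at an unadjusted p under 0.05 after NaCl, 206 after the mock treatment and 45 between them. With arrays scaled to the same spread, ADE8 (0.52, adjusted p = 0.0085) and HPT1 (0.40, adjusted p = 0.0498) passed as higher after NaCl and ADE8 (0.44, adjusted p = 0.0316) after the mock treatment, where 22.2% and 17.2% of all genes passed, and no member passed between the treatments. Adding the recovery values gives the level under H2O2 relative to untreated cells. In that level none of the members passed at 10 or 20 min, where 0% and 0.227% of all genes passed, with 389 and 852 genes at an unadjusted p under 0.05. The level difference of HPT1 at 20 min was −1.01 ± 0.36 (adjusted p = 0.197) and that of GUD1 was 2.62 ± 0.78 (adjusted p = 0.139).

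Under 30 min of NaCl, 7 of the 8 ADE genes and HPT1 passed as lower, against 27.8% of all genes tested. ADE6 read −2.31 and −1.75, ADE12 −2.17 and −1.71, ADE1 −2.12 and −1.75, ADE13 −1.25 and −1.44, and ADE8 −1.49 and −0.85. The median of the 8 ADE means was −1.70, against −0.013 for all genes. At 15 min most of these genes were still near 0: on the 1 array there, ADE1 read −0.31, ADE6 −0.44, ADE13 −0.24, ADE8 0.17 and ADE12 −0.71. HPT1 and ADE4 were the 2 members past 2-fold lower on that array, against 6.41% of all genes. At 45 min the same 8 members passed as lower, against 19.4% of all genes, and leaving out 1 array or replicate number at a time gave 8 at 30 min and 6 to 7 at 45 min. HPT1, ADE4 and ADE12 (0.74 ± 0.23, adjusted p = 0.041) were higher at 45 than at 30 min, against 6.87% of all genes. The ADE12 call was lost without NaCl 30 min replicate 1, NaCl 45 min replicate 1 or NaCl 45 min replicate 2. On the 1 array at 60 min, ADE1 at −1.34, ADE17 at −1.45, ADE6 at −1.02, ADE8 at −1.05 and HPT1 were past 2-fold lower, against 6.02% of all genes, while ADE4 read −0.23 and ADE13 −0.50.

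The 2 stresses were compared at 30 min. ADE12 was lower under NaCl than under H2O2 in naive cells by 1.62 ± 0.23 on the log2 scale (adjusted p = 8.81e-06, n = 2 and 2) and ADE1 by 1.52 ± 0.25 (adjusted p = 4.81e-05). ADE6, ADE17, ADE13, ADE8 and HPT1 were lower too, by 1.34, 1.27, 1.11, 0.97 and 0.96, which makes 7 of 10 members against 24.8% of all genes. ADE4 did not pass, at −0.17 ± 0.28 (adjusted p = 0.638). The count was 4 without NaCl 30 min replicate 1, and HPT1 did not pass when any 1 of the 4 arrays was left out (adjusted p from 0.0826 to 0.166).

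On the second design the values are those of 1 array per condition, with no test, and 2-fold is used as the mark. BY4741 arrays, naive and pretreated alike, had untreated BY4741 cells as reference, and both kinds of nup42-delta H2O2 arrays had recovered nup42-delta cells, per the labels, so a difference between pretreated and naive is a difference of levels within each strain. In untreated nup42-delta cells against BY4741, the 8 ADE genes lay between −0.28 and −0.035 and HPT1 was at −0.15, none past 2-fold lower (1.22% of all genes). In BY4741 at 20 min of H2O2, HPT1 read −1.55 in naive and −3.90 in pretreated cells. In nup42-delta it read −1.71 and −1.82. The pretreated-minus-naive difference of HPT1 was thus −2.34 in BY4741 and −0.11 in nup42-delta.

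On the log2 scale, the ADE differences at 20 min were also larger in BY4741 than in nup42-delta. In BY4741 at 20 min, ADE17 went from 0.09 in naive to −1.60 in pretreated cells, ADE6 from 0.01 to −1.39, ADE4 from −0.24 to −1.58 and ADE13 from 0.24 to −0.77. In nup42-delta, ADE17 went from −0.31 to −0.70, ADE6 from −0.12 to −0.52, ADE4 from −0.16 to −0.72 and ADE13 from 0.17 to −0.24. All 8 ADE differences were below 0 in both strains, with a median of −0.99 in BY4741 and −0.39 in nup42-delta. The median of all genes was 0.01 in BY4741 and 0.03 in nup42-delta. Past 2-fold lower were 5 of the 10 members in BY4741, against 9.05% of all genes, and 0 in nup42-delta, against 1.59%. GUD1 went from 0.28 to 1.71 in BY4741 and from 0.15 to 0.49 in nup42-delta, and its BY4741 difference was the 1 past 2-fold higher (7.9% of all genes). Set against each other, the BY4741 difference was past 2-fold lower than the nup42-delta difference for HPT1, ADE17 and ADE6 (against 7.89% of all genes) and past 2-fold higher for GUD1 (against 5.1%). The SD of the pretreated-minus-naive difference over all genes was 0.753 in BY4741 and 0.411 in nup42-delta, and its part in the result was not tested. By rank from the lowest, HPT1 stood at 0.19% of genes in BY4741 and 30.8% in nup42-delta. ADE17 (1.41% and 10.4%), ADE6 (3.54% and 10.4%) and ADE8 (18.2% and 38.6%) also ranked lower in BY4741. ADE4 (4.06% and 6.44%) and ADE13 (8.92% and 9.78%) differed little. ADE1 (9.73% and 7.30%), ADE12 (20.6% and 19.1%) and ADE2 (23.3% and 13.1%) ranked lower in nup42-delta. The BY4741 HPT1 difference of −2.34 was larger than the first design's level difference of −1.01, and the 2 designs were not tested against each other.

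At 10 min no member was past 2-fold different between pretreated and naive cells in either strain, against 2.55% of all genes lower and 5.27% higher in BY4741 and 1.67% lower and 2.9% higher in nup42-delta. HPT1 read −0.81 and −1.34 in naive and pretreated BY4741, and −0.76 and −0.78 in nup42-delta. After 30 min of NaCl, HPT1 read −3.98 in BY4741 and −4.13 in nup42-delta, and ADE17 −1.98 and −2.14. Past 2-fold lower there were 7 members in BY4741, against 18.2% of all genes, and 8 in nup42-delta, against 16.3%. The 1 member that made the difference, ADE13, read −0.999 and −1.0. ADE2 again read near 0, at −0.09 and −0.25. The nup42-delta NaCl array had recovered BY4741 cells as reference, so its values hold any difference between the strains as well.

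**Figure D3:**
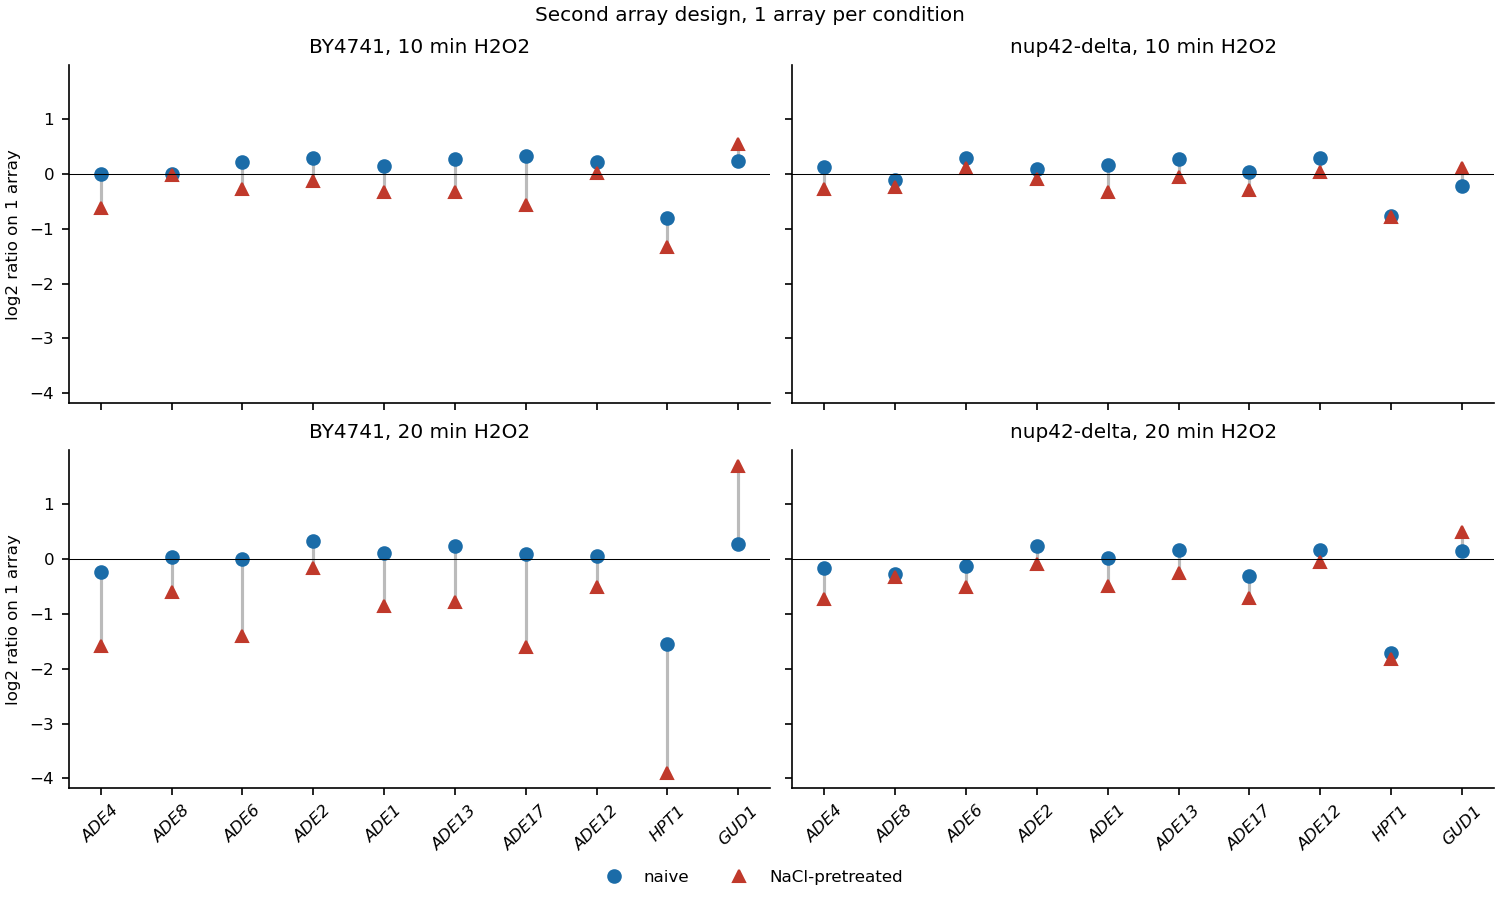
Log2 ratio on 1 array (y axis) for the 10 genes in BY4741 (left) and nup42-delta (right) at 10 min (top) and 20 min (bottom) of H2O2. Circles are naive and triangles pretreated cells, joined by a line for each gene. At 20 min HPT1 goes from −1.55 to −3.90 in BY4741 and from −1.71 to −1.82 in nup42-delta.

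The wider set of purine genes held 24 further genes, of which 23 were measured on each design. After 40 min of H2O2 in naive cells, 16 of the 23 passed as lower and 2 as higher, against 33.4% and 28% of all genes. The lowest were AAH1, the adenine deaminase, at −2.17, IMD4 at −2.04 and IMD3 at −1.83, both IMP dehydrogenases at the head of the GMP branch, and PRS1, a PRPP synthetase subunit, at −1.78. In pretreated cells at 40 min, 18 of 23 passed as lower, against 33.5% of all genes, and none as higher, led by AAH1 at −3.75, GUA1, the GMP synthetase, at −3.31, IMD4 at −3.28 and IMD3 at −2.77. After 30 min of NaCl, 19 of 23 were lower, against 27.8% of all genes, led by AAH1 at −3.92, GUA1 at −2.43, IMD4 at −2.27 and ADE5,7, which encodes the enzyme of a pair of early steps of ring synthesis, at −1.85. At 45 min of NaCl 13 were lower and 1 higher, against 19.4% and 18.8% of all genes, with AAH1 at −3.10.

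IMD2 moved apart from its relatives. It is an IMP dehydrogenase gene known to be induced when GTP runs low, and it was named after its values were seen. IMD2 rose to 1.25 in naive cells at 40 min of H2O2 and fell to −1.18 at 30 min of NaCl, and the difference between the stresses at 30 min, −2.67, was the largest of the list. PNP1, a nucleoside phosphorylase, was the other gene higher in naive cells at 40 min (0.50). ADE16, which encodes the same activity as ADE17, lay at 0.24 in naive and 0.26 in pretreated cells at 40 min of H2O2 and at −0.14 after 30 min of NaCl, none of them past the test, and passed as higher at 45 min of NaCl (0.48). IMD2, IMD3 and IMD4, and likewise ADE16 and ADE17, are close in sequence, and cross-hybridisation between such pairs was not tested.

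In pretreated minus naive cells, 7 of 22 tested purine genes were lower at 30 min, against 6.26% of all genes, and 11 of 23 at 40 min, against 9.5%. As for the members, none of these calls held with arrays scaled to the same spread or with the variance of the compared arrays alone, where 0% of all genes passed. At 40 min the largest were GUA1 (−1.63), AAH1 (−1.58), ADE5,7 (−1.28) and IMD4 (−1.24). The 2 that were higher at 40 min, against 2.62% of all genes, were AMD1, the AMP deaminase (1.17), and APT2 (0.67). Both were named after their values were seen.

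**Figure D4:**
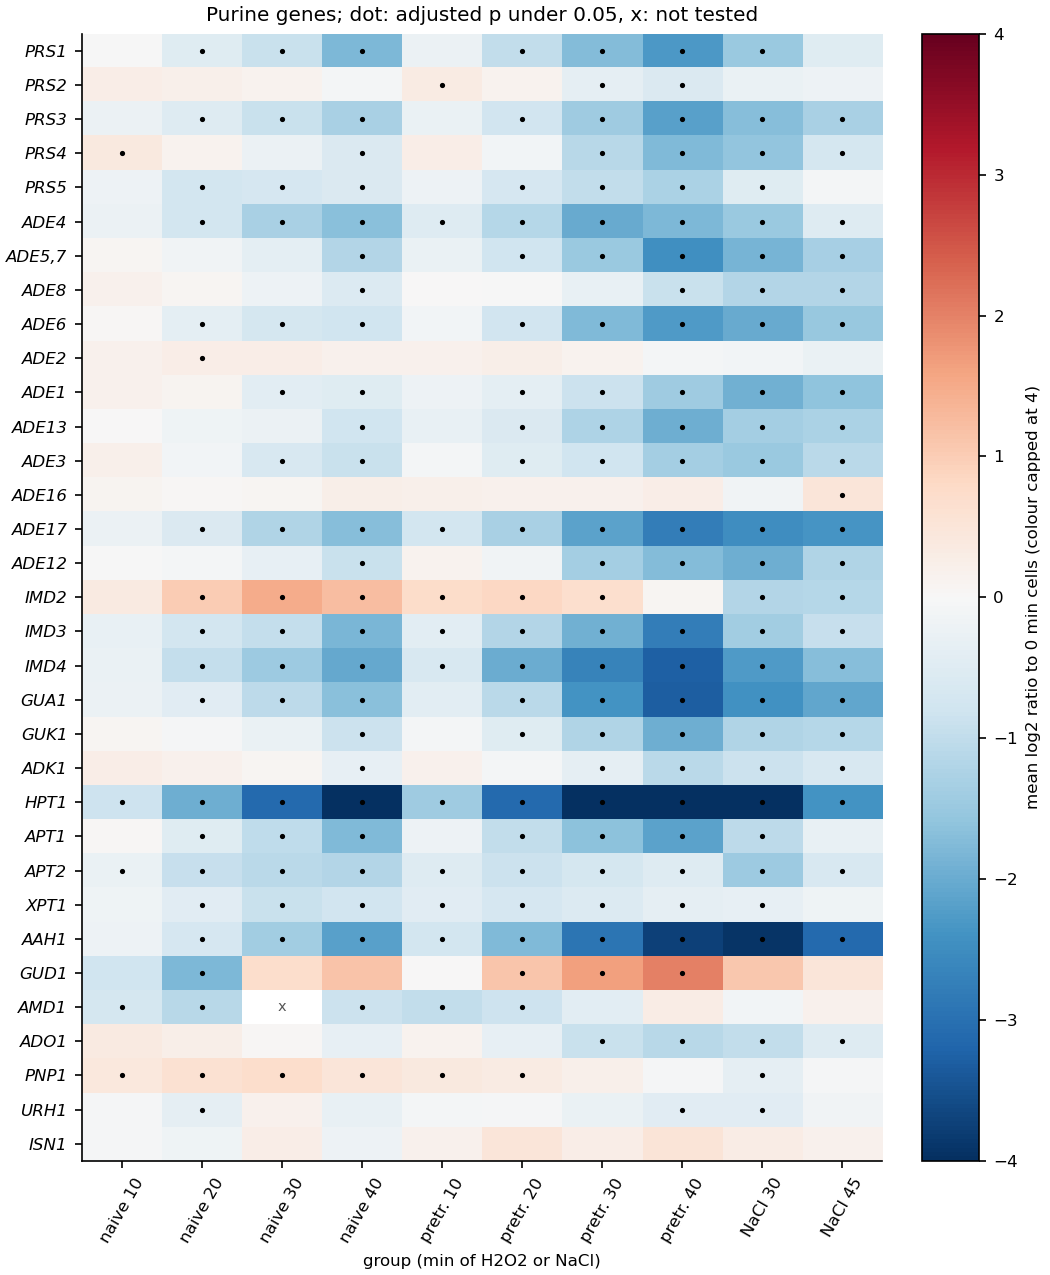
Mean log2 ratio to 0 min cells (colour, capped at 4 in either direction) of the 10 genes and 23 further purine genes in the 10 tested groups of stressed cells, ordered by pathway step. Dots mark an adjusted p under 0.05. Most rows are blue from 30 min on, while ADE2, ADE16 and ISN1 stay pale and IMD2 is red under H2O2 and blue under NaCl.

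Genes that feed or control the pathway moved as follows. Of 13 genes for folate-bound carbon units, glycine and histidine, 10 passed as lower and 1 as higher in naive cells at 40 min of H2O2 (33.4% and 28% of all genes), led by MTD1 at −1.75, SHM2 at −1.66, GCV2 at −1.54 and GCV1 at −1.36. SHM2 is the cytosolic serine hydroxymethyltransferase, and it read −2.79 in pretreated cells at 40 min and −2.06 after 30 min of NaCl, where 11 of 12 tested genes were lower (27.8% of all genes). Pretreated minus naive, 3 of 11 tested genes were lower at 40 min (9.5% of all genes): MIS1 (−1.53), SHM1 (−1.33) and SHM2 (−1.12). Of the regulators and base transporters, FCY2, the purine-cytosine permease, fell to −3.15 in naive cells and −4.0 in pretreated cells at 40 min of H2O2 and to −2.66 after 30 min of NaCl. BAS1 passed as lower in pretreated cells at 40 min (−2.19) and PHO2 as higher (1.25), and GCN4, the activator of amino acid synthesis, was at −1.30 there. BAS1 had too few values for a test in naive cells at 40 min and under NaCl, but passed as lower in naive cells at 10, 20 and 30 min (−1.29, −1.87 and −2.385). PHO2 passed as higher in naive cells at 20, 30 and 40 min (0.67, 1.055 and 1.355) and after 30 min of NaCl (0.82), but not at 45 min (0.335). GCN4 passed as lower in naive cells at 40 min (−0.76) and after 30 min of NaCl (−1.315). FCY2 differed by −0.84 between pretreated and naive cells at 40 min and did not pass.

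Pyrimidine genes, which draw on the same PRPP, were more often lower than higher, and the share called higher was not above that of all genes. Of 12, 7 passed as lower and 3 as higher in naive cells at 40 min of H2O2, against 33.4% and 28% of all genes. URA7, a CTP synthase, was at −2.78, and its relative URA8 at 2.44. FUR4, the uracil permease, was at −2.02 and FUR1, the uracil phosphoribosyltransferase, at −1.98. After 30 min of NaCl 8 of 11 tested genes were lower and 2 higher, against 27.8% and 24.9% of all genes, with URA7 at −3.96, URA2 at −2.23, FUR1 at −2.2 and URA5 at −1.77. Pretreated minus naive, 3 of 12 were lower at 40 min, against 9.5% of all genes: URA1 (−1.65), URA5 (−0.96) and FUR1 (−0.86).

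Across the 14 group means of the first design, ADE1, ADE6, ADE8, ADE12, ADE13 and ADE17 ran alike, with Pearson r from 0.777 to 0.959 over their 15 pairs, given as a description of groups that share references and times. ADE4 ran closest to HPT1 (r = 0.941), less to ADE6 (0.709) and ADE8 (0.334). ADE2 had r between −0.25 and 0.55 with the other members, and GUD1 was negative with all of them (−0.79 to −0.083). The genes most like HPT1, of 5086 with a value in every group, were NSR1 (r = 0.973), NAF1, HO, PUS7 and YOR342C. Those most like GUD1 were ATR1 (r = 0.926), CBP2, SEC6, NAB6 and SAP155, and those most like the mean of the 8 ADE genes were RMT2 (r = 0.993), PAB1, EFM4, DBP2 and LIA1. These names depended on the measure: by Spearman's rho 0, 1 and 0 of the 5 remained among the 5 most alike, and with the spread of arrays equalised 0, 3 and 2.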

How the data were processed

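The deposited values are log2 ratios of channel 2 over channel 1, made by the authors with 1 value per gene. Base 2 and the direction, sample over reference, were inferred from the channel labels and from NUP42. Per the labels' protocols, RNA came from hot-phenol extraction and carried Oyster dyes after indirect labelling. The scanner and any normalization: not given in the sources used here. No dye swap stands in the labels, so a dye effect enters a ratio against 0.

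Group means were fitted over the 32 arrays of the first design with limma 3.58.1 in R 4.3.3 (lmFit, eBayes). A gene was tested where each group had at least 2 values. P-values were 2-sided, adjusted by the Benjamini-Hochberg method over all genes tested. The second design has no replicates. Named were all members, up to 4 genes per other list with the largest mean among those that passed, and the 5 most alike by Pearson r. Members, lists and tests were chosen with earlier results of these data known. The alternatives were array scaling and centring, the arrays of a comparison alone, complete genes, robust variances, replicate, slide and code blocks, and leaving out arrays. No coordinates or sequences are given, since the files name no genome build.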

Additional observations from a re-analysis of the deposited data

Results flagged for a closer look

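The H2O2 response of 7 of the 10 genes differed between pretreated and naive cells by limma's test of the difference itself, at 1 or more times. The share of all genes that passed at 1 or more times was not counted. By time, 2 members passed at 20 min (3.87% of all genes), 3 at 30 min (9.05%) and 5 at 40 min (12.1%). With arrays scaled to the same spread, or with the variance of the compared arrays alone, 0 of these members and 0% of all genes passed at these times. At 20 min the difference was −1.16 for HPT1 (adjusted p = 0.0312) and 2.89 for GUD1 (adjusted p = 0.0217). At 30 min it was −1.08 for ADE6, −1.01 for ADE13 and −1.02 for ADE12. At 40 min it was −1.47 for ADE6, −0.915 for ADE1, −1.17 for ADE13, −1.07 for ADE17 and −0.84 for ADE12. The GUD1 value contains the naive array at −3.43, and the HPT1 value was −0.875 among the YG9 arrays and −1.74 on the pair of YG8 arrays. No group held 4 or more arrays, so single arrays were not tested as outliers.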

How the results depend on the processing

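No call of a member passed in the opposite direction under any alternative. Counts below are of the 10 members. With all arrays scaled to the same median absolute value, 3 passed in naive cells at 30 min and 3 at 40 min (29.5% and 30% of all genes). In pretreated cells 4 passed at 20 min (37.3%), and 0 in each of the pretreated-minus-naive differences at 20, 30 and 40 min (0%). After recovery from NaCl 2 passed (22.2%), and after the mock treatment 1 (17.2%). For naive 40 minus 10 min 1 passed (11%), where 9 members and 42.1% of all genes did as deposited. For pretreated 40 minus 10 min 4 passed (15.9%), where 9 members and 44.6% of all genes did as deposited. For NaCl 45 minus 30 min 0 passed (1.28%), where 3 members and 8.95% of all genes did as deposited. With the variance from the arrays of a comparison alone, 3 passed in naive cells at 20 min (36.9% of all genes), 1 and 3 in pretreated cells at 10 and 20 min (22.6% and 41.1%), 0 in the differences at 20, 30 and 40 min (0%), and 1 for NaCl 45 minus 30 min (9.15%), with fewer arrays in the fit. Taking only genes valued on all arrays leaves out GUD1, ADE2 and ADE4. Among these complete genes, 3 members passed in naive cells at 20 min (56.5% of all such genes) and 1 in the difference at 20 min (6.15%). Among the YG9 arrays, 4 passed in pretreated cells at 20 min (54.4% of all genes) and 1 in the difference at 20 min (5.14%). The cause was not tested otherwise.

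The replicate numbers were not taken as pairs, since with 3 pairs not every correlation of deviations was above 0.1 (−0.03 to 0.379 at 10 min, 0.034 to 0.558 at 20 min, 0.0964 to 0.508 in recovered cells). With 2 pairs, too few to decide, it was 0.169 to 0.172 for the difference at 30 min, 0.035 to 0.0393 at 40 min, 0.422 to 0.454 for NaCl 45 minus 30 min, 0.18 to 0.188 for NaCl minus H2O2, −0.0102 to 0.109 for naive and −0.138 to 0.0146 for pretreated 40 minus 10 min. With a replicate block, 9 members passed in naive cells at 30 min (59.9% of all genes) and 5 in the difference at 30 min (14.1%), and no other count moved by more than 1.5 times. Centring, robust variances, and slide or code series as a block moved no count so far.

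Leaving out 1 array or 1 replicate number at a time, members that passed numbered 0 to 1 in naive cells at 10 min, 2 to 5 at 20 min, 3 to 4 at 30 min and 4 to 7 at 40 min. They numbered 1 to 3, 4 to 7, 6 to 7 and 8 to 9 in pretreated cells, 0 to 0, 0 to 3, 0 to 2 and 0 to 3 in the differences, 8 to 8 and 6 to 7 at 30 and 45 min of NaCl, 1 to 9 for naive and 5 to 8 for pretreated 40 minus 10 min, 0 to 2 for NaCl 45 minus 30 min, 2 to 6 for NaCl minus H2O2 at 30 min, 0 to 1 for the level difference at 20 min, and 0 to 0 in recovered cells. For leave-one-out fits, here and above, the share of all genes that passed is not given. Whether a lower count is particular to the members is therefore not shown. Of the 5 genes named for likeness, 0 remained for HPT1, 1 for GUD1 and 0 for the ADE mean by Spearman's rho, and 0, 3 and 2 with the spread equalised. The search for promoter motifs was not run, since no sequences were used here. The values of GUD1 with 1 naive array at 20 min were an alternative chosen after seeing the data: without replicate 1 the difference was 1.25, and without replicate 2 it was 4.53.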
